A study of Mus musculus with 6 samples.

Results

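The genes described here are 32 mouse genes that make, move, store and export cholesterol, of 21774 mRNA genes measured in B cells of the lung. They were taken by name, 1 transcript per gene, the one with the highest mean over the libraries. All 32 were present and all 32 passed the filter on low values, which kept 15759 genes. By role, 18 are enzymes of synthesis, 5 control the transcription factors that drive synthesis, 4 move or store cholesterol inside the cell, and 5 belong to the liver X receptors (LXR) and to export. The cells came from the lungs of wild type mice and were pulled from the tissue suspension with B220 microbeads. In the severe asthma group (3 libraries), mice received 10 µg of lipopolysaccharide (LPS) and 25 µg of house dust mite (HDM) in 35 µl of PBS through the trachea on days 0 to 2, and the same amount of HDM alone once a day on days 7 to 14. Mice of the control group (3 libraries) were given PBS by the same route throughout. The labels give no strain, age or sex. Nor do they tie each library to its own animal, so the p-values below rest on a spread between libraries that may be technical. B220 is a surface form of CD45 that B cells carry, and some other cells carry it as well.

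Cholesterol is built from acetyl-CoA. A first set of enzymes makes mevalonate and from it the isoprenoid farnesyl diphosphate, another set joins farnesyl units into squalene and closes the rings to lanosterol, and the last set trims lanosterol to cholesterol. When sterols in the endoplasmic reticulum run low, SCAP carries the SREBP transcription factors to the Golgi, where they are cut and released to switch on these enzymes, while INSIG proteins hold SCAP back when sterols are plentiful. In the opposite direction, oxysterols activate LXR, which raises the exporters ABCA1 and ABCG1. Dividing lymphocytes need sterols for new membrane, and oxysterols also guide B cells through the receptor encoded by Gpr183.

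The promoters of 4 members are shown because regulators of this pathway read such letters. Abca1, the exporter at the far end of the pathway, is set beside 3 enzymes. It holds none of the exact letter strings searched, which do not cover variant sites. Each run covers 250 bases before to 50 bases after the start of the gene, on the strand of the gene, from RefSeq on GRCm38.p6. Capitals mark a fixed form of the sterol regulatory element, TCACNCCAC, which SREBP binds. They also mark the CCAAT box, which nuclear factor Y binds, written CCAAT or, on the other strand, ATTGG.
Mvd, chr8:122443373-122443672, minus strand: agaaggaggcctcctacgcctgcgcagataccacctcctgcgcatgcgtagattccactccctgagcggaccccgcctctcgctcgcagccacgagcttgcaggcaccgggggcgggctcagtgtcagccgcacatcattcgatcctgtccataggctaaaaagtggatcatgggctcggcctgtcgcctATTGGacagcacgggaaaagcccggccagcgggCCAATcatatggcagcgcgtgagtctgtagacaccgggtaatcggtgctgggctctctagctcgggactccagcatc
Hmgcs1, chr13:119690101-119690400, plus strand: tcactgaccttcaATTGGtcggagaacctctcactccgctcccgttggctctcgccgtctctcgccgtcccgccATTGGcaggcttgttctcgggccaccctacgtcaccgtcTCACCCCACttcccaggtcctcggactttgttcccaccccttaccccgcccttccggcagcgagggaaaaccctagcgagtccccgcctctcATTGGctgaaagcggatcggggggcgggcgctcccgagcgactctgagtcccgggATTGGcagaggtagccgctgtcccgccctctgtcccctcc
Cyp51, chr5:4104648-4104947, minus strand: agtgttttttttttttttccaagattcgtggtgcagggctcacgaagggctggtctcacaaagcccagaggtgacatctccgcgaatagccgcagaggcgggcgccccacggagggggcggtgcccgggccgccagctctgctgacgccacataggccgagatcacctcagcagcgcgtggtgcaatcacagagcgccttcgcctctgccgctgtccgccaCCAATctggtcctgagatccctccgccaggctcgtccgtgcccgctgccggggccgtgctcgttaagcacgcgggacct
Abca1, chr4:53159846-53160145, minus strand: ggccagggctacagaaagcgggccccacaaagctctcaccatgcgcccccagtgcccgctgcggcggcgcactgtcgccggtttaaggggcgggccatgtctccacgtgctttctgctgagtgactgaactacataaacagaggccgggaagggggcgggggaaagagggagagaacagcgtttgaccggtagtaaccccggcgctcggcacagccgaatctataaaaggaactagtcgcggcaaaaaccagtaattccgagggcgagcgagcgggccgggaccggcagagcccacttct

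Of the 32 genes, 26 matched the RefSeq promoters by symbol, with 35 windows among them. Fdps, Fdft1, Sqle, Abcg1, Npc1 and Stard4 did not match. A CCAAT box on either strand was present for 14 of the 15 matched synthesis enzymes (93.3%), all but Acat2, and for 42.3% of the tested genes with a window (5308 of 12541). Among the matched LXR and efflux genes 1 of 4 had one, Mylip. The 3 enzyme promoters above carry it close to the start, at 27 and 60 bases before it in Mvd, at 29 in Cyp51 and at 45 in Hmgcs1, which has further copies. The exact letters TCACNCCAC were present in 1 of the 15 enzymes, as TCACCCCAC at 137 bases before the start of Hmgcs1, and in 1.42% of the tested genes. The LXR element, searched only as the exact letters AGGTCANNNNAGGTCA, was in none of the members' windows. Those letters were in 5 of all 32851 promoters of this length and in none of the 12541 tested genes with a window. These searches covered both strands, the motifs do not overlap each other in the windows shown, and a match or its lack is a description of these letters alone. Variant forms of the sterol regulatory element and of the LXR element were not searched, so no gene is shown to lack either.

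The libraries held 17123386, 17299344 and 18054903 reads over mRNA genes in severe asthma and 16498219, 16634865 and 17580562 in control, and 15614 to 16193 genes had reads. Control library 1 stood apart from the other controls, with Spearman correlations across genes of 0.974 and 0.977 to them, against 0.993 between those 2. B cell markers were abundant in all libraries, with a summed level over 10 genes of 189448 to 206254 adjusted reads in severe asthma and 134995 to 191953 in control. Of the 10, 2 rose, near the 20.7% risen over all tested genes (0 without control library 3 or any 1 severe asthma library, and 0 with total-read scaling). Other cells were present too. The sum over 14 monocyte and macrophage markers was 63683 to 115436 in severe asthma and 7328 to 19067 in control, highest in severe asthma library 2, and that over 10 alveolar epithelial markers was 4604 to 8984 in severe asthma and 19528 to 71662 in control, highest in control library 1. None of these markers was at 0 in all libraries. In such bulk samples, fewer cells of a type and less RNA per cell cannot be told apart. Values are the deposited library-size-adjusted reads. A difference is log2 of severe asthma minus log2 of control on the log2(value + 1) scale, with its standard error (SE). Calls are limma's at an adjusted p under 0.05, with Benjamini-Hochberg adjustment over all genes tested.

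Most cholesterol synthesis enzymes were higher in severe asthma, by 1.32-fold to 1.93-fold where they rose. By limma, 11 of the 18 rose and 0 fell, where 20.7% of all tested genes rose and 14.4% fell. Over all 32 cholesterol genes 17 rose and 0 fell, or 11 and 0 without severe asthma library 2 and 12 and 0 with scaling by total reads alone. The split of calls over all genes depends on the scaling, with 3262 risen and 2263 fallen as deposited, 2498 and 2732 with median-of-ratios scaling, 1920 and 3111 with total reads and 2479 and 2884 by DESeq2. Of the 18 enzymes, 14 were higher and 0 lower at an unadjusted p under 0.05, where 4264 and 3061 of all 15759 genes were, and voom, edgeR and DESeq2 on the recovered reads each gave 9 risen and 0 fallen. The median difference over the 18 enzymes was 0.48, against 0.06 over all tested genes. In 15 of the 18 the lowest severe asthma library was above the highest control library, which was so for 31.6% of all tested genes, and in 0 of the 18 did the groups separate the other way, against 21.6%. The count of risen enzymes was 7 without severe asthma library 2, where 1575 of 15745 tested genes rose. It was 13 without control library 1 (3401 of 15641 genes) and also 13 without both libraries numbered 1 (3442 of 15628). Counts given below with a library left out likewise have shares of their own over all genes, not the 20.7%. With total-read scaling, 8 of the enzymes rose. The shares over all tested genes include genes with a mean value as low as 1. With a mean of at least 10 required, 12 of the 18 enzymes rose, as did 3256 of 13417 tested genes.

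**Figure D1:**
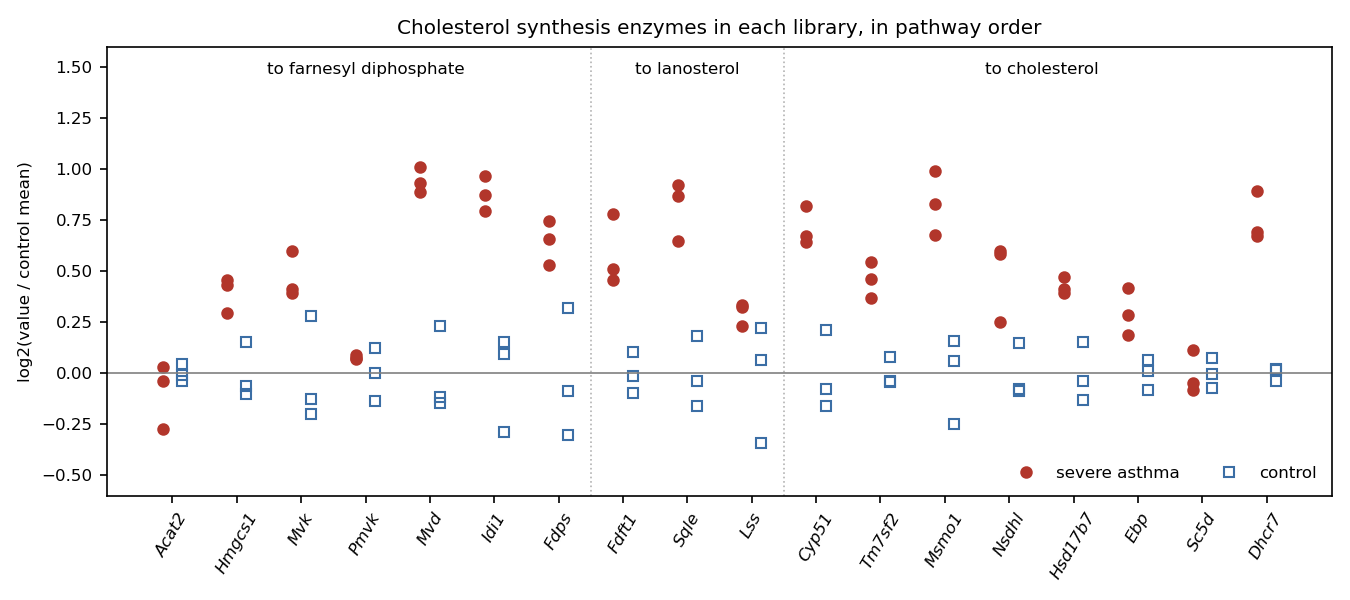
Level of the 18 synthesis enzymes in each library, in pathway order, as log2 of the value over the control mean of that gene. Filled circles are the 3 severe asthma libraries and open squares the 3 control libraries; the groups overlap in Acat2, Pmvk and Sc5d and are apart in the other 15.

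The largest difference among the mevalonate enzymes was that of Mvd, mevalonate diphosphate decarboxylase, which makes isopentenyl diphosphate (chromosome 8, 122433596 to 122443422 on GRCm38.p6). It had 452, 491 and 466 adjusted reads in severe asthma libraries 1 to 3, against 225, 221 and 286 in control libraries 1 to 3. The groups were far apart, and the difference was 0.95 (SE 0.125, limma adjusted p = 0.00209). Idi1, the isomerase of the next step, had 269.5, 239 and 253 in severe asthma, against 153, 147 and 113 in control (0.89, SE 0.159, limma adjusted p = 0.00644). Fdps, farnesyl diphosphate synthase, had 531, 565 and 487 in severe asthma, against 419.8, 317 and 273 in control (0.67, SE 0.158, limma adjusted p = 0.0161). All 3 severe asthma values were above all controls in both genes, but control library 1 was the highest control for each of them. Without severe asthma library 2, the adjusted p of Fdps was 0.0752. In the GENCODE annotation Fdps shares 1124 exon bases on the same strand with Gm43738, for which no value was used here, so its reads are uncertain.

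Hmgcs1, HMG-CoA synthase, acts early in the route to mevalonate and has the sterol regulatory element shown above. It had 1071, 1053 and 957 adjusted reads in severe asthma, against 866, 746 and 725 in control, a difference of 0.40 (SE 0.0923, limma adjusted p = 0.0146). Its groups did not overlap, but the call was lost without severe asthma library 2 (adjusted p = 0.0662) and with total-read scaling (adjusted p = 0.0675). Mvk, mevalonate kinase, had 161, 163 and 186 in severe asthma, against 148, 112 and 107 in control (0.48, SE 0.181, limma adjusted p = 0.0718). It did not pass, and control library 1 lay close to the severe asthma values. Without that library its adjusted p was 0.013. The 2 remaining genes of this stretch overlapped between the groups. Pmvk, phosphomevalonate kinase, averaged 421 ± 2.9 in severe asthma and 398 ± 36.2 in control (SD, n = 3 each), with a difference of 0.08 (limma adjusted p = 0.545). Acat2, the cytosolic thiolase that joins acetyl-CoA units, averaged 232 ± 24.6 in severe asthma and 247 ± 7.37 in control (difference -0.09, limma adjusted p = 0.593). Acat2 has a close paralog, Acat3, whose level was 417 ± 36.6 in severe asthma and 295 ± 18.6 in control, and how reads were shared between both is not known, so both values are uncertain.

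Of the 3 enzymes from farnesyl diphosphate to lanosterol, 2 rose, where 20.7% of all tested genes rose. Sqle, squalene epoxidase, a rate-limiting enzyme of this stretch, had 498, 518 and 428 adjusted reads in severe asthma, against 309.7, 244 and 266 in control (0.82, SE 0.126, limma adjusted p = 0.00382). Fdft1, squalene synthase, had 485, 583 and 467 in severe asthma, against 365, 318 and 337 in control (0.58, SE 0.114, limma adjusted p = 0.00853). Both were clearly separated between the groups. In the GENCODE annotation Fdft1 shares 774 exon bases with Ctsb, the lysosomal protease cathepsin B, on the opposite strand. Ctsb averaged 11697 in severe asthma and 3587 in control (difference 1.71, limma adjusted p = 0.00156), and none of the sources used here says whether strand was used in counting, so reads of the 2 genes cannot be told apart in that stretch. Lss, lanosterol synthase, had 341, 367 and 364 in severe asthma, against 338, 304 and 229 in control (0.32, SE 0.151, limma adjusted p = 0.14). Its lowest severe asthma library was just above control library 1, and without that control the adjusted p was 0.0299.

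Among the 8 enzymes that turn lanosterol into cholesterol, 5 rose, where 20.7% of all tested genes rose. The count was 3 without severe asthma library 1 or 2 or control library 2. It was also 3 with median-of-ratios or total-read scaling, voom, edgeR or DESeq2. Dhcr7, which makes cholesterol from 7-dehydrocholesterol, had 452, 519 and 445 adjusted reads in severe asthma, against 283, 284 and 272 in control (0.75, SE 0.0996, limma adjusted p = 0.00219). Msmo1, which removes the methyl groups at carbon C4, had 467, 418 and 376 in severe asthma, against 263, 198 and 245 in control (0.84, SE 0.141, limma adjusted p = 0.0052). Cyp51, the demethylase that acts first on lanosterol, had 814, 901 and 797 in severe asthma, against 591, 457 and 483 in control (0.72, SE 0.112, limma adjusted p = 0.00397). Cyp51 shares 166 exon bases on the opposite strand with Akap9, which averaged 2946 in severe asthma and 3078 in control. Dhcr7, Msmo1 and Cyp51 kept their calls in all 19 alternative settings, as did Mvd, Idi1, Fdft1 and Sqle among the enzymes.

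The other called enzymes of this stretch had smaller differences. Nsdhl, which works with Msmo1, had 296, 292 and 232 in severe asthma, against 184, 185 and 216 in control (0.48, SE 0.144, limma adjusted p = 0.0354). Hsd17b7, the reductase that completes those demethylation steps, had 251, 247 and 262 in severe asthma, against 184, 172 and 209.9 in control (0.43, SE 0.126, limma adjusted p = 0.0333). The groups were apart in both, but their calls were among the weakest. Leaving out severe asthma library 1, severe asthma library 2 or control library 2 lost them for Nsdhl (adjusted p 0.118, 0.132 and 0.0761), and the same libraries or severe asthma library 3 lost them for Hsd17b7 (0.0871, 0.094, 0.0765 and 0.122). Tm7sf2, a sterol reductase, had 116, 109 and 123 in severe asthma, against 81.6, 89 and 81.9 in control (0.46, SE 0.177, limma adjusted p = 0.0785). Ebp, the sterol isomerase, had 395, 464 and 423 in severe asthma, against 328, 350.1 and 363 in control (0.30, SE 0.1, limma adjusted p = 0.0516). Neither passed, although the groups did not overlap in either gene. Tm7sf2 shares 532 exon bases with Vps51 on the same strand, so part of its reads may be counted for both. Vps51 averaged 1270 in severe asthma and 1014 in control (difference 0.33, limma adjusted p = 0.0223). Sc5d, the desaturase before Dhcr7, had 577, 503 and 515 in severe asthma, against 531, 561 and 507 in control, and its difference was -0.01 (SE 0.0904, limma adjusted p = 0.972).

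Of the 5 genes that encode or control SREBP, 3 rose and 0 fell, where 20.7% of all tested genes rose and 14.4% fell. The counts were 3 risen and 0 fallen at an unadjusted p under 0.05, and 2 and 0 by voom, edgeR and DESeq2 each. Srebf2, which encodes the SREBP that mainly drives cholesterol synthesis, had 8329, 7976 and 7889 adjusted reads in severe asthma, against 6319, 6350.4 and 5859.5 in control (0.39, SE 0.0689, limma adjusted p = 0.0064). Srebf1, whose SREBP mainly drives fatty acid synthesis, had 2637, 2802 and 2553 in severe asthma, against 2049, 1634 and 1646 in control (0.59, SE 0.0995, limma adjusted p = 0.00522). The groups were well apart for both factors, and both kept their calls in all 19 settings. Scap had 2083, 2195 and 2127 in severe asthma, against 1888, 1783 and 1812 in control (0.22, SE 0.0623, limma adjusted p = 0.0269). Its groups did not overlap, but the call was lost without any 1 of the libraries other than control library 1 (adjusted p 0.0573 to 0.0989) and with total-read scaling (adjusted p = 0.355).

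The INSIG genes overlapped between the groups. Insig1, itself a target of SREBP, had 1235, 1006 and 856 in severe asthma, against 1086, 844 and 792 in control (0.18, SE 0.165, limma adjusted p = 0.424). In both groups library 1 was the highest. Insig2 had 553, 562 and 486 in severe asthma, against 469, 588 and 603 in control (difference -0.05, SE 0.119, limma adjusted p = 0.793). Srebf1 shares 109 exon bases on the opposite strand with Rai1, which averaged 2127 in severe asthma and 1770.1 in control.

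**Figure D2:**
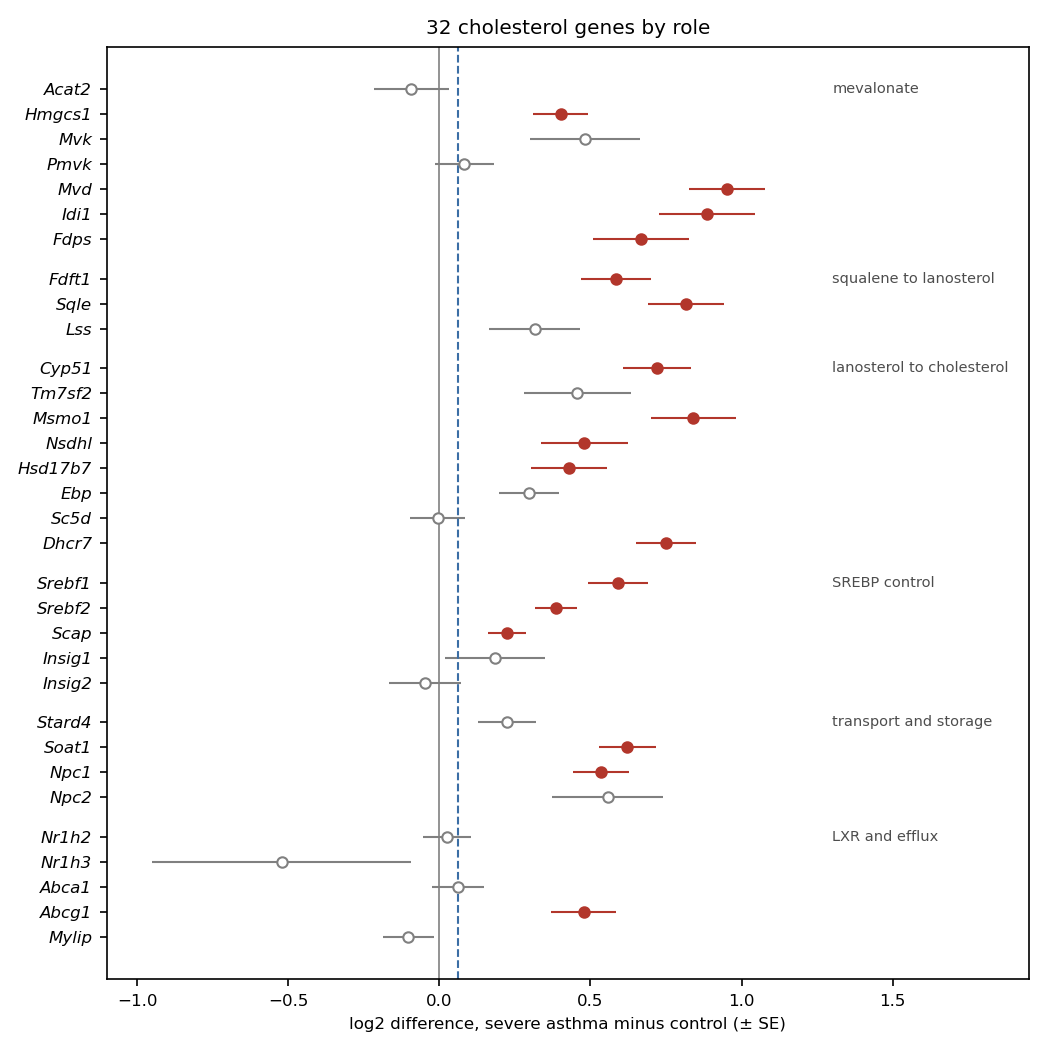
Difference between the groups for each of the 32 genes, as log2 of severe asthma minus log2 of control with its standard error, ordered by role. Filled red points passed limma's threshold and open grey points did not; the dashed line marks the median of all tested genes, 0.06, and the 17 called genes all lie to its right.

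Of 4 genes that move cholesterol out of lysosomes, carry it or store it, 2 rose and 0 fell, where 20.7% of all tested genes rose. Without control library 1, 4 of 4 rose. Soat1, which esterifies cholesterol for storage in droplets, had 1125, 1386 and 1217 adjusted reads in severe asthma, against 765, 850.2 and 799.6 in control (0.62, SE 0.0934, limma adjusted p = 0.00342). Npc1, the membrane protein that hands cholesterol out of the lysosome, had 1735, 1768 and 1818 in severe asthma, against 1373, 1087 and 1227 in control (0.54, SE 0.0918, limma adjusted p = 0.00553). Both were apart between the groups and kept their calls in all 19 settings. Npc1 shares 511 exon bases on the opposite strand with Rmc1, which averaged 1034 in severe asthma and 969 in control. Npc2, the soluble lysosomal protein that passes cholesterol to NPC1, had 3862, 4842 and 3735 in severe asthma, against 3644, 2359 and 2554 in control (0.56, SE 0.182, limma adjusted p = 0.054). It did not pass. Control library 1 lay near the severe asthma values, and without that library the adjusted p was 0.00346. Stard4, a sterol carrier of the cytosol, had 536, 521 and 510.0 in severe asthma, against 497, 437 and 411 in control (0.22, SE 0.0965, limma adjusted p = 0.107). Its groups did not overlap, and its adjusted p was 0.0222 without control library 1. Soat1 and Npc2 were highest in severe asthma library 2, the library with the highest sum of macrophage markers. The part of these cells in the result was not tested.

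Of the 5 LXR and efflux genes 1 rose and 0 fell, near the 20.7% risen over all tested genes, with a median difference of 0.03. The counts were also 1 and 0 at an unadjusted p under 0.05 and by voom, edgeR and DESeq2. Abca1, which loads cholesterol onto lipid-poor apolipoprotein (chromosome 4, 53030789 to 53159988), had 4772, 4395 and 4817 adjusted reads in severe asthma, against 4892, 4076 and 4469 in control. The groups overlapped, and the difference was 0.06 (SE 0.0858, limma adjusted p = 0.618), close to the median of all genes. Its sign turned under other scalings, with -0.03 by median-of-ratios scaling and -0.09 by total reads, as the median of all genes did (-0.03 and -0.08). Abcg1, which exports cholesterol to mature lipoprotein particles, had 2508, 2788 and 2483 in severe asthma, against 2001, 1583 and 2032 in control (0.48, SE 0.108, limma adjusted p = 0.0137). All 3 severe asthma values were above all controls. Without severe asthma library 2, in which Abcg1 was highest, the adjusted p was 0.0666, and with total-read scaling it was 0.0558.

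The receptors themselves did not pass. Nr1h2 (LXR beta) had 2862, 3011 and 2734 in severe asthma, against 2730.1, 3069.7 and 2663 in control (0.03, SE 0.0787, limma adjusted p = 0.824). Nr1h3 (LXR alpha, abundant in macrophages and other lipid-handling cells) had 73.2, 127 and 79.4 in severe asthma, against 253, 91 and 95.5 in control (difference -0.52, SE 0.429, limma adjusted p = 0.381). Control library 1 was far above the other controls. The difference of Nr1h3 was -0.05 without that library and 0.10 without both libraries numbered 1. Mylip, a ubiquitin ligase that LXR induces, had 2731, 2412 and 2352 in severe asthma, against 2578, 2887 and 2576 in control (difference -0.10, SE 0.0842, limma adjusted p = 0.376).

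Synthesis was then set against export within each library. The mean log2 level of the 18 enzymes minus that of Abca1 and Abcg1 was -3.17, -3.16 and -3.24 in severe asthma and -3.44, -3.29 and -3.53 in control. The change between libraries is what can be read from it, since read counts are not scaled by length. The severe asthma libraries were all higher than the controls, by 0.23 between the means. The closest were severe asthma library 3 at -3.24 and control library 2 at -3.29. The mean of the enzymes was higher by 0.50 and that of the 2 exporters by 0.27, which is subtracted. Of the exporters, Abcg1 rose, by about as much (0.48) as the median of the 18 enzymes (0.48). Abca1, with a difference of 0.06, did not pass.

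**Figure D3:**
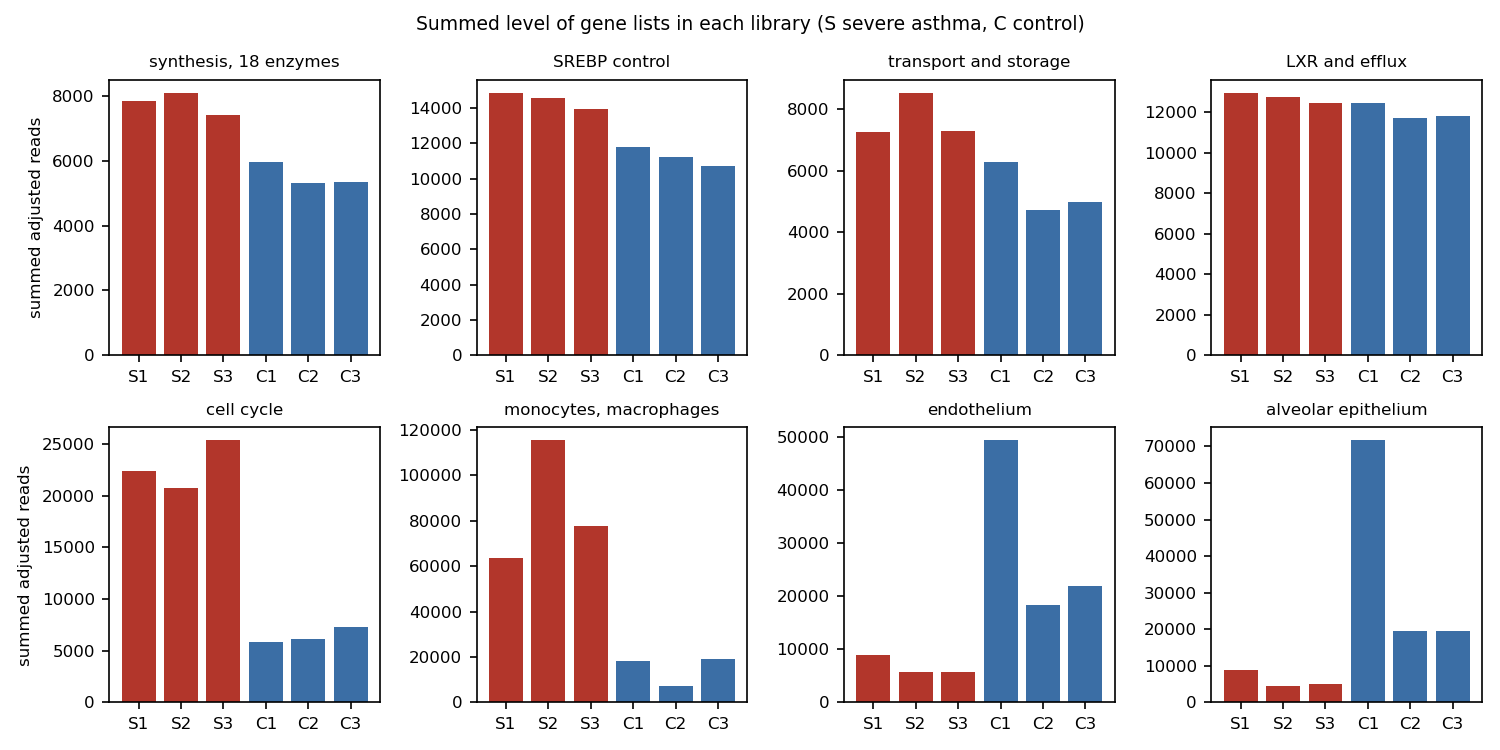
Summed adjusted reads of 4 cholesterol gene groups (top) and 4 marker lists (bottom) in each library, red for severe asthma and blue for control. The synthesis enzymes reach 7409.7 to 8091 in severe asthma and 5313 to 5960 in control, while the cell cycle, macrophage, endothelial and alveolar epithelial lists differ by larger factors. In severe asthma the macrophage sum is highest in library 2, and in control the endothelial and alveolar epithelial sums are highest in library 1.

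Other cells and states moved with these genes. All 17 cell cycle markers rose, where 20.7% of all tested genes rose and 14.4% fell. Their sum was 20711 to 25366 in severe asthma and 5875 to 7341 in control. Mki67, a marker of dividing cells, averaged 5362 ± 1034 in severe asthma and 425 ± 256 in control (SD, n = 3 each). Of 10 germinal centre markers 9 rose, among them Mybl1, with 1026 ± 206 in severe asthma and 37.3 ± 4.56 in control. Of 14 monocyte and macrophage markers 10 rose (6 with the replicate number as a block or without control library 1, and 2 without both libraries numbered 1), and the most abundant was Lyz2, with 67971 ± 21866 in severe asthma and 11872 ± 5425 in control. All 10 endothelial markers fell in the full comparison, and their sum was 5634 to 8973 in severe asthma and 18394 to 49286 in control. Their counts depend on single libraries, with 1 to 10 endothelial markers fallen when 1 library was left out (1 without severe asthma library 3, 3 without severe asthma library 2 and 4 without control library 1), while the summed levels stayed apart. In severe asthma, library 2 was the highest of the 3 for 8 of the 18 synthesis enzymes, and in control, library 1 was the highest for 11 of the 18. The part of any of these cells in the levels of the cholesterol genes was not tested.

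Of 15 genes of fatty acid synthesis, the other branch under SREBP, 1 rose and 4 fell, where 20.7% of all tested genes rose and 14.4% fell. The median was -0.15. Without control library 1, 4 rose and 4 fell, and without both libraries numbered 1 the median was 0.09. Scd1, the stearoyl-CoA desaturase, had 22089, 21765.0 and 22603 adjusted reads in severe asthma, against 34093, 30467 and 30309 in control (difference -0.51, SE 0.0782, limma adjusted p = 0.00365). Elovl5, an elongase of polyunsaturated fatty acids, averaged 1213 ± 19.1 in severe asthma and 2043 ± 209 in control (SD, n = 3 each), a difference of -0.75 (limma adjusted p = 0.00122). Both were lower in all 3 severe asthma libraries than in any control. Acacb, the mitochondrial acetyl-CoA carboxylase, averaged 16.2 ± 5.86 in severe asthma and 133 ± 96.7 in control (difference -2.79, limma adjusted p = 0.00645), and was highest in control library 1, which also had the highest sums of endothelial, fibroblast and alveolar epithelial markers. The difference between these 15 genes and the 18 enzymes was not tested.

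Genes of the isoprenoid branch, which draw on farnesyl diphosphate to make dolichol and to prenylate proteins, had 3 risen and 0 fallen of 13, a share of risen genes near the 20.7% over all tested genes. The counts were 4 and 0 at an unadjusted p under 0.05, 1 and 0 by voom and DESeq2, and 2 and 0 by edgeR, and the median was 0.16. Pggt1b, a subunit of geranylgeranyl transferase, averaged 794 ± 79.3 in severe asthma and 607 ± 23.3 in control (0.38, limma adjusted p = 0.0182). Dhdds, which builds the dolichol chain, averaged 594 ± 33.8 in severe asthma and 467 ± 16.9 in control (0.34, limma adjusted p = 0.0176), and its partner Nus1 had a difference of 0.26 (limma adjusted p = 0.0457). None of the 3 was called in every setting, and 0 genes of the list rose without control library 3 or severe asthma library 1, and 1 without severe asthma library 2 or 3. With total-read scaling 0 rose and 1 fell. Of 10 genes that process SREBP or sense sterols, 1 rose and 0 fell, below the 20.7% risen over all tested genes, with a median of 0.10. That gene was Aup1 (0.29, limma adjusted p = 0.0368), whose call was lost in 9 of the 19 settings, and with the replicate block 2 genes of this list rose. Lbr, a sterol reductase of the nuclear envelope, had a difference of 0.25 (adjusted p = 0.11, or 0.0397 with the replicate block) and Pgrmc1 one of -0.27 (adjusted p = 0.131).

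**Figure D4:**
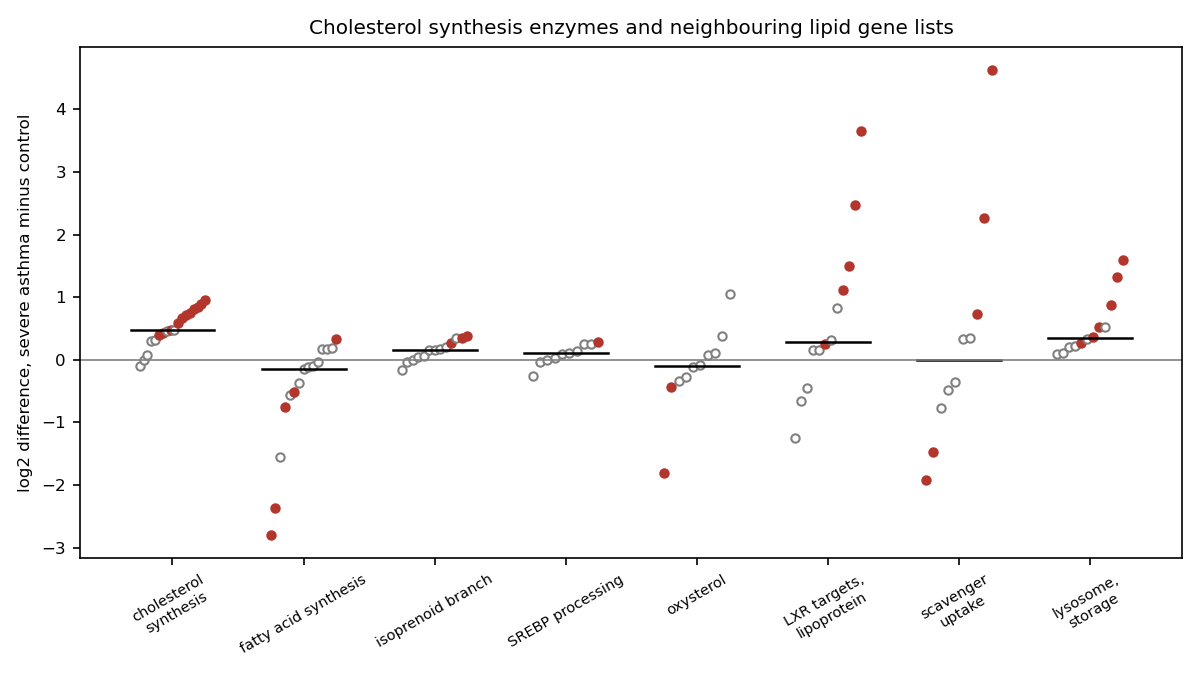
Difference of every tested gene in the cholesterol synthesis list and 7 neighbouring lipid gene lists, as log2 of severe asthma minus log2 of control; each circle is 1 gene, filled where limma called it, and bars are medians. The synthesis enzymes range from -0.09 to 0.95 with a median of 0.48. The isoprenoid list ranges from -0.17 to 0.38 and the SREBP processing list from -0.27 to 0.29. The lists of LXR targets and scavenger receptors range from -1.25 to 3.65 and from -1.92 to 4.62.

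Some of the remaining lists hold genes that macrophages also express. Of 12 LXR targets and lipoprotein genes 5 rose and 0 fell by limma, where 20.7% of all tested genes rose and 14.4% fell. The counts were 5 and 1 at an unadjusted p under 0.05, and 5 and 1 by voom, edgeR and DESeq2 each. The count of risen genes was 3 without control library 3, severe asthma library 2 or severe asthma library 3, and 3 with median-of-ratios or total-read scaling. Apoe, the apolipoprotein that macrophages secrete, had 33661, 40244 and 28544 adjusted reads in severe asthma, against 6234, 4861 and 7586 in control (2.46, SE 0.189, limma adjusted p = 0.00058). Apoc2, an apolipoprotein that activates lipoprotein lipase, averaged 60.2 ± 13.1 in severe asthma and 3.85 ± 0.813 in control (3.65, limma adjusted p = 0.000793), and Smpdl3a, a phosphodiesterase that LXR induces, averaged 1685 ± 259 in severe asthma and 773 ± 95.04 in control (1.12, limma adjusted p = 0.0014). These 3 kept their calls in all settings. Apoe, Smpdl3a and Lipa were highest in severe asthma library 2, which had the highest sum of macrophage markers. Apoc2 was highest in severe asthma library 1, which had the lowest such sum in that group. The part of macrophages in these levels was not tested.

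Of 12 lysosomal and storage genes 6 rose and 0 fell, where 20.7% of all tested genes rose and 14.4% fell. The counts were 7 and 0 at an unadjusted p under 0.05, and 4 and 0 by voom, edgeR and DESeq2 each. Lipa, the acid lipase that frees cholesterol from its esters, had 1601, 2659 and 2113 in severe asthma, against 792, 735 and 976 in control (1.33, SE 0.199, limma adjusted p = 0.00543). Nceh1, which hydrolyses stored cholesterol esters, averaged 924 ± 94.9 in severe asthma and 512 ± 112 in control (0.87, limma adjusted p = 0.00878), and its adjusted p was 0.0572 without both libraries numbered 1. Lamp2, a lysosomal membrane protein, averaged 2177 ± 269 in severe asthma and 1514 ± 134 in control (0.52, limma adjusted p = 0.0104). The count of risen genes in this list was 3 without severe asthma library 2 or without severe asthma library 3.

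Among 10 scavenger and uptake genes 3 rose and 2 fell, near the shares over all tested genes (20.7% risen and 14.4% fallen). Msr1, a scavenger receptor of macrophages, had 243, 435 and 355 in severe asthma, against 8.81, 5.002 and 41.96 in control (4.62, SE 0.729, limma adjusted p = 0.00666), and its adjusted p was 0.13 without both libraries numbered 1. Olr1, a receptor for oxidised lipoprotein, averaged 582 ± 151 in severe asthma and 133 ± 82.4 in control (2.26, limma adjusted p = 0.017). Its call was lost without control library 1 (adjusted p = 0.0893) and without severe asthma library 2 or 3 (0.0601 and 0.0609). Cd36, a fatty acid and lipoprotein receptor that endothelium and macrophages carry, had 1461, 1387 and 1653 in severe asthma, against 7019.6, 3166 and 3198 in control (difference -1.47, SE 0.336, limma adjusted p = 0.0242). With the replicate block its adjusted p was 0.0505, and it was 0.0521, 0.0756 and 0.0678 without severe asthma library 1, 2 or 3. The list had 1 risen and 0 fallen without severe asthma library 2 or 3, and 2 and 1 without severe asthma library 1.

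The oxysterol genes, which make or sense the ligands of LXR and of the Gpr183 receptor, had 0 risen and 2 fallen of 10, near the 14.4% fallen over all tested genes (1 and 3 at an unadjusted p under 0.05, 0 and 2 by voom and edgeR, 0 and 3 by DESeq2). Osbpl5, a lipid transfer protein, averaged 773 ± 61.9 in severe asthma and 1049 ± 154 in control (difference -0.43, limma adjusted p = 0.0254). Cyp7b1, an oxysterol hydroxylase, averaged 2.05 ± 1.67 in severe asthma and 9.36 ± 4.74 in control (difference -1.80, limma adjusted p = 0.0412). Each lost its call without severe asthma library 1 or 2, among others. Cyp27a1, a sterol hydroxylase, had a difference of -0.34 (limma adjusted p = 0.0634, or 0.0392 with the replicate block). Gpr183 had 1965.0, 1374 and 1261 in severe asthma, against 2034, 2001 and 1493 in control (-0.28, limma adjusted p = 0.317). Ch25h, which makes the precursor of its ligand, had 49.1, 49.04 and 44.6 in severe asthma, against 56.1, 22.01 and 38.6 in control (0.38, limma adjusted p = 0.454). The groups overlapped for both.

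The authors' deposited table gives the same direction for all 17 called members. By its q-values, 14 of the 32 members were higher at a q-value under 0.05 and 0 lower, and 8 of those 14 were synthesis enzymes. Of all 21774 mRNA genes 9.54% were higher. That share includes genes below the filter on low values, which all 32 members passed, so the shares are not directly comparable. None of the 32 is in the authors' list of 2977 called genes, which holds only absolute log2 fold changes of at least 1. The largest among the members in the authors' deposited table was 0.94, of Mvd. In the authors' deposited pathway table, steroid biosynthesis counts 1 called gene of 20, Lipa, with a q-value of 1. Cholesterol metabolism counts 12 of 49 there, Apoe, Apoc2 and Cd36 among them, with a q-value of 0.0714.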

How the data were processed

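RNA with poly(A) tails from 6 libraries was sequenced. Per the submitters' processing notes, the tools were HISAT2 2.1.0, HTSeq 0.11.2 and bcl2fastq and the build was mm10, without a stated role or order, and strand is not given in the sources used here. The authors deposited a library-size-adjusted signal per transcript and library; no header names the tool that adjusted it. Each of 429494 deposited values above 0 was rebuilt within 0.001 from a whole read number (100% whole within 0.05 reads) by edgeR's quantile adjustment with a dispersion of 0.0474, and these reads served the count tests run as alternatives. Per the file headers, the deposited tables also give log2 fold changes, p-values and q-values that the authors computed by a test not stated.

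Each gene is its transcript of the highest mean value. The main test was limma 3.58.1 (R 4.3.3), in its trend form with robust moderation, run on log2(value + 1), which understates the change of low genes, over genes whose mean value reached 1, two-sided, with Benjamini-Hochberg adjustment. It was tested on simulated data. Alternatives, given in the closing section, were other pseudocounts, filters, scalings and transcripts, a block, left-out libraries, voom, edgeR 4.0.16 and DESeq2 1.42.0. An exact permutation test of 3 against 3 libraries cannot go below p = 0.1, so none is given.

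The groups share replicate numbers. Deviations from the group means correlated across genes between libraries of the same number at 0.414, 0.128 and 0.14, all above 0.1. Severe asthma library 2 with control library 3 gave 0.2 and severe asthma library 3 with control library 2 gave 0.179, both above the pairs numbered 2 and 3. These values do not settle whether the numbers pair the libraries. The main test did not use the numbers, and the replicate block was run as an alternative. Named genes are all 32 members, up to 3 genes of smallest p in each neighbouring list with Gpr183 and Ch25h besides, and up to 2 genes of highest mean in marker lists. Ctsb, Vps51, Rai1, Akap9, Rmc1, Gm43738 and Acat3 were added for shared exons or sequence. Exon overlaps are from GENCODE on GRCm38. The members and lists were chosen with earlier results of these data known.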

Additional observations from a re-analysis of the deposited data

How the results depend on the processing

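Over 19 alternatives, 11 of the 17 called members kept their call in every one: Mvd, Idi1, Fdft1, Sqle, Cyp51, Msmo1, Dhcr7, Srebf1, Srebf2, Soat1 and Npc1. Hmgcs1, Fdps, Nsdhl, Hsd17b7, Scap and Abcg1 lost it in at least 1, and Mvk, Lss, Ebp, Stard4 and Npc2 gained one in at least 1. With 1 library left out, the synthesis genes risen numbered 7 to 13, the efflux and LXR genes risen 0 to 1, all mRNA genes risen 1575 to 3401 and all mRNA genes fallen 728 to 2335. Scaling by total reads alone moved the median of all genes to -0.08 from 0.06 and left 1920 mRNA genes risen, 3111 fallen, 8 synthesis genes risen and 0 efflux and LXR genes risen. The replicate block gave 3528 mRNA genes risen and 2714 fallen, with 11 synthesis genes risen and 0 fallen. Beside the calls given above for Cd36, Lbr, Cyp27a1 and the macrophage markers, it moved the fallen fibroblast markers to 10 of 10, against 6, and the risen B cell markers to 4 of 10, against 2. It changed the call of no member and no other named lipid gene. With total reads the oxysterol list had 5 fallen (4 with median-of-ratios scaling), against 2, and the fatty acid list 0 risen, against 1. Members near 0 turned sign. With median-of-ratios scaling Pmvk was at -0.0078, Nr1h2 at -0.064 and Abca1 at -0.030. With total reads Pmvk was at -0.063, Nr1h2 at -0.12 and Abca1 at -0.085. Nr1h2 was at -0.037 and Abca1 at -0.0031 with voom, and at -0.039 and -0.0060 with edgeR. By DESeq2 Pmvk was at -0.013, Nr1h2 at -0.065 and Abca1 at -0.034. Nr1h3 was not near 0 in the main test, at -0.52, and turned to 0.10 without both libraries numbered 1. With 1 library left out, Sc5d ranged over -0.0649 to 0.0331, Insig2 -0.161 to 0.0199, Nr1h2 -0.0141 to 0.0884 and Abca1 -0.00567 to 0.126. The causes were not tested. Depth did not set a floor for any member, since each had reads in all libraries.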
